A study of Homo sapiens with 5 samples.

Results

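The 5 receptor genes MET, MST1R, AXL, TYRO3 and MERTK and the 4 genes for their ligands, HGF, MST1, GAS6 and PROS1, were followed from gefitinib-sensitive to gefitinib-resistant lung cancer cells. These 9 genes were chosen by name as receptors that can bypass EGFR, with their ligands, out of 37181 genes or assembled loci in the deposited table. The genes themselves were not chosen by a threshold on their values, but earlier results of these data were known when they were chosen. A total of 13 entries of the table carry one of the 9 names, and for each name the entry with the highest mean over the libraries was taken, a choice that matters for HGF. HCC827 is a human line of lung adenocarcinoma cells with mutant EGFR. HCC827/GR was raised from it under increasing doses of gefitinib, an inhibitor of the EGFR kinase, for more than 6 months. All samples are labelled as carrying a deletion in exon 19. The comparison rests on 3 libraries of HCC827/GR (replicates 1, 2 and 3) and 2 libraries of gefitinib-sensitive parental HCC827 (labelled HCC827/GS, replicates 2 and 3). The sources used here do not state whether the resistant line is a clone, whether gefitinib was in the medium at harvest, or whether replicates were separate cultures, so p-values measure the spread between these libraries, which may be technical.

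MET and MST1R, also called RON, are the members of one family of receptor tyrosine kinases. HGF, the ligand of MET, and MST1, also called macrophage-stimulating protein or MSP, the ligand of RON, are secreted as inactive precursors that trypsin-like proteases must cleave. AXL, TYRO3 and MERTK form the TAM family, whose ligands GAS6 and PROS1 (protein S) need vitamin K-dependent carboxylation and bridge the receptors to phosphatidylserine on membranes. In EGFR-mutant lung cancer, MET amplification and high AXL are known routes by which cells keep downstream signalling on while EGFR is blocked.

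FPKM is a level per length of transcript, so it can be set side by side between genes, but it carries no read counts and the depth of each library is unknown. Between 66.7% and 78.6% of the FPKM of each library lay in protein-coding genes, and log2(FPKM + 1) across the tested entries gave a Pearson correlation of 0.913 to 0.927 between libraries of the same cells and 0.851 to 0.873 between libraries of different cells. Of the 7 markers of lung carcinoma epithelium, 6 were in the table, and these summed to between 1068 and 1186 FPKM in HCC827 and between 443.1 and 573.4 FPKM in HCC827/GR, with 5 of the 6 lower in HCC827/GR at an adjusted p under 0.05. The 7 fibroblast markers summed to at most 3.44 FPKM in any library, most of it from PDGFRA, with DCN at or below 0.0259 FPKM. PDGFRB, below the level for testing, lay higher in HCC827/GR without overlap, at 0.278, 0.184 and 0.184 against 0.00777 and 0.0147 FPKM. PDGFRA, COL3A1 and LUM lay lower without overlap. PTPRC, the common leukocyte marker, was at or below 0.0228 FPKM. Of 5 endothelial markers, the entry named PECAM1 was tested and was lower in HCC827/GR, listed at 0 in 3 libraries against 4.34 and 3.32 FPKM in HCC827. No transcript of that entry was matched to an annotated gene, so the fall belongs to a locus that carries the name. VWF, CDH5, KDR and TEK stayed at or below 0.0830 FPKM. In RNA from a whole culture, fewer cells that express a gene and less RNA per cell cannot be told apart, and whether the fall of the epithelial markers has a part in the values below was not tested.

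In HCC827 cells, MET stood far above the other 8 genes, followed by PROS1, AXL, MERTK, MST1R, GAS6, HGF, TYRO3 and MST1. MET ranked between 117 and 135 of the 16189 entries tested in the HCC827 libraries and between 202 and 253 in the HCC827/GR libraries. In this order the libraries of MST1R and GAS6 overlapped in HCC827, and those of the other neighbours did not. HGF is placed by its highest entry, which holds no annotated transcript. The entry with the annotated HGF transcripts had 0.544 and 1.05 FPKM in HCC827 and overlapped with TYRO3. In HCC827/GR cells the order was MET, AXL, PROS1, MERTK, GAS6, TYRO3, MST1R, HGF and MST1, in which AXL overlapped with PROS1 and TYRO3 with MST1R. RON thus moved from the fifth place to the seventh, and the AXL mean moved past that of PROS1.

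**Figure D1:**
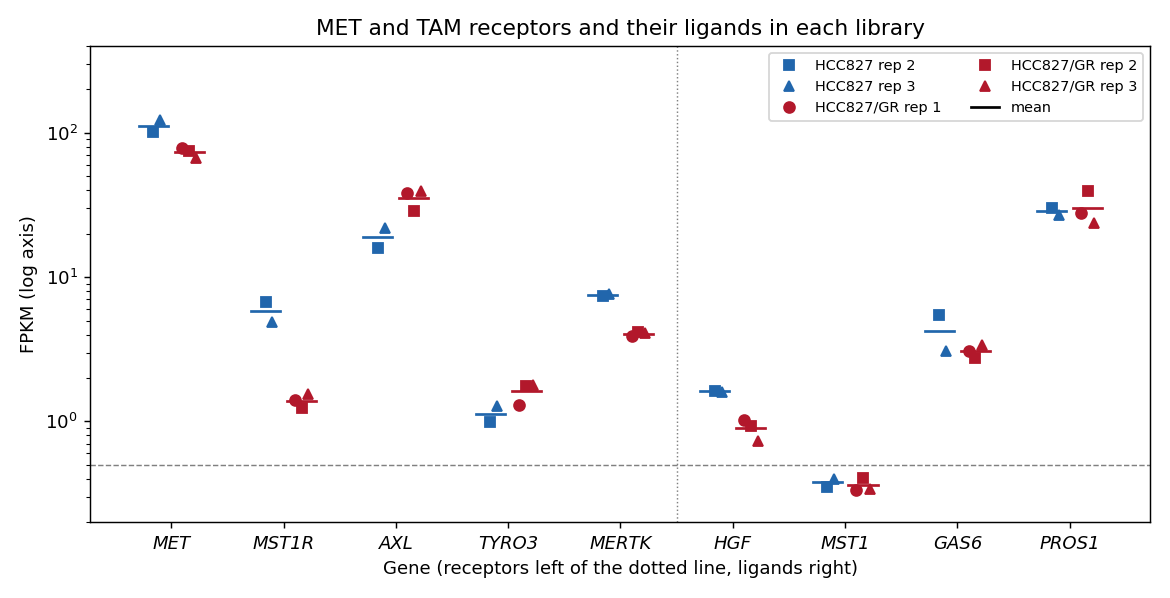
FPKM on a log axis of the 9 genes in each of the 5 libraries, with HCC827 in blue, HCC827/GR in red, a symbol for each replicate number and a bar at the group mean. The dashed line marks the mean of 0.5 FPKM needed for a test. MST1R and MERTK sit lower in each HCC827/GR library, MET and AXL part in opposite directions, and MST1 lies under the line.

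Of the 9 genes, 8 reached a mean of 0.5 FPKM over the 5 libraries and were tested with all other such entries, by limma with Benjamini-Hochberg adjustment. An adjusted p under 0.05 was reached by 2 of them, MST1R and MERTK, both lower in HCC827/GR cells. Over all entries tested 11.0% reached it, 5.26% higher and 5.71% lower. The study's own cut-offs, an unadjusted p under 0.05 with a change of 2-fold or more either way, were applied to the limma fit. The study used them with Ballgown. They were met by 1 of the 8, MST1R, which was lower. Of all entries 6.94% met them, 2.96% higher and 3.97% lower. The HCC827/GR and HCC827 libraries did not overlap for 6 of the 8, against 46.3% of all entries. The median log2 fold change of the 8 was -0.40 and that of all entries 0.00143. In both the overlap count and this median, HGF stands by an entry without annotated transcripts, at -0.47 and without overlap. The entry that holds the annotated HGF transcripts had -0.03, and its libraries overlapped, so both summary values depend on that choice. Fold changes are differences on the log2(FPKM + 1) scale, HCC827/GR against HCC827, on which low genes move less than their FPKM ratio.

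**Figure D2:**
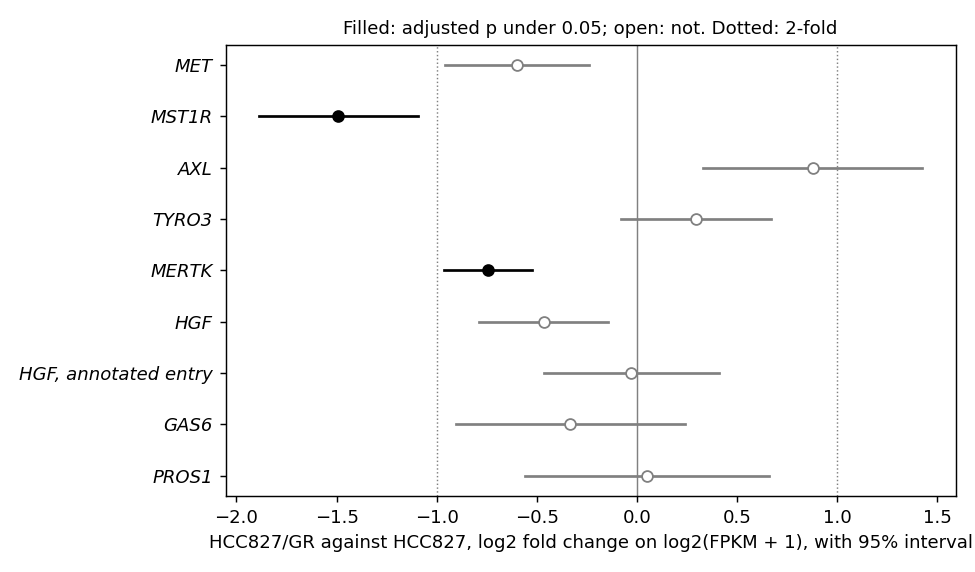
Log2 fold change of the 8 tested genes and of the annotated HGF entry, with unadjusted 95% intervals from limma. Filled points passed an adjusted p of 0.05, and dotted lines mark a change of 2-fold. MST1R at -1.49 and MERTK at -0.75 are filled, and the intervals of MET, AXL and the upper HGF entry leave out 0 without passing the adjustment.

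MST1R, the receptor for macrophage-stimulating protein, showed the largest change among the 8 tested genes. Its level was 1.41, 1.23 and 1.54 FPKM in HCC827/GR replicates 1, 2 and 3 and 6.70 and 4.87 FPKM in HCC827 replicates 2 and 3. The groups lay far apart, and HCC827 replicate 2 was the highest library. The means were 1.40 ± 0.153 FPKM (SD, n = 3) and 5.79 ± 1.29 FPKM (SD, n = 2), a ratio of 0.241. On the log2(FPKM + 1) scale MST1R fell by 1.49 (standard error 0.15, 95% interval -1.89 to -1.09, adjusted p = 0.0109 from limma). Without HCC827/GR replicate 1 the adjusted p was 0.0518 (0.00953 to 0.213 over all alternatives), and the log2 fold change stayed between -1.69 and -1.30 with each library left out. MST1R lies on the minus strand of chromosome 3, from 49887002 to 49903873 (GRCh38, GENCODE release 29). The antisense gene AC105935.2 lies within it and had 1.21, 0.570 and 0.510 FPKM in HCC827/GR and 1.78 and 2.10 FPKM in HCC827. A second antisense gene there, AC105935.1, had 0.393, 0.159 and 0.0781 FPKM in HCC827/GR and 0.115 and 0.205 FPKM in HCC827, with overlap. No source states that the reads were counted by strand, so the share of such reads in the value of MST1R was not tested.

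The entries whose profile over the 5 libraries lay nearest to that of MST1R were SYK, AZGP1 and ZNF165, at Euclidean distances of 0.108, 0.149 and 0.157 between centred log2(FPKM + 1) values. SYK, a non-receptor tyrosine kinase, had 0.148, 0.145 and 0.222 FPKM in HCC827/GR and 2.56 and 1.82 FPKM in HCC827. Its log2 fold change was -1.44, against -1.51 for AZGP1 and -1.49 for ZNF165. These genes share with MST1R a higher value in HCC827 replicate 2 than in replicate 3. They were picked for likeness to MST1R over these same libraries, so the shared pattern follows largely from the choice.

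MERTK, the TAM receptor best known for the uptake of dying cells by phagocytes, was the other member that fell. The level in HCC827/GR replicates 1, 2 and 3 was 3.91, 4.15 and 4.08 FPKM, against 7.34 and 7.58 FPKM in HCC827 replicates 2 and 3. Both groups were tight, and the gap between them was many times the spread within either. The means were 4.05 ± 0.122 FPKM (SD, n = 3) and 7.46 ± 0.165 FPKM (SD, n = 2), a ratio of 0.543. The fall by 0.75 on the log2 scale (standard error 0.084, 95% interval -0.96 to -0.53, adjusted p = 0.0124 from limma) stayed short of 2-fold. The adjusted p passed 0.05 when HCC827/GR replicate 1 (0.0573), HCC827 replicate 2 (0.0613) or HCC827 replicate 3 (0.0612) was left out, and over all alternatives it lay between 0.0112 and 0.143. MERTK lies on the plus strand of chromosome 2, from 111898479 to 112029561. Of 7 leukocyte and macrophage markers, 6 were in the table, and neither of the 2 tested had an adjusted p under 0.05. The 6 summed to between 33.7 and 39.1 FPKM in HCC827/GR and between 32.8 and 40.5 FPKM in HCC827. CD68, a lysosomal gene not confined to macrophages, made up most of their sum at 30.8 to 38.9 FPKM, so the sum says little of the others. CD163, a scavenger receptor of macrophages, had 0.257, 0.323 and 0.295 FPKM in HCC827/GR and 1.006 and 0.626 FPKM in HCC827, without overlap (log2 fold change -0.48, adjusted p = 0.138 from limma). CSF1R, the receptor of the macrophage growth factor, also lay lower without overlap, at 0.311, 0.276 and 0.248 FPKM against 0.662 and 0.619 FPKM. CD14 lay lower, at 0.164, 0.0391 and 0.0572 FPKM against 0.267 and 0.266 FPKM, and ITGAM higher, at 0.107, 0.133 and 0.270 FPKM against 0.0263 and 0.0456 FPKM. CSF1R, CD14 and ITGAM were below the level for testing, and the part of these markers in the value of MERTK was not tested.

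The sequences before the starts of both genes that fell are shown with those of MET and AXL, which are the best known of these receptors in resistance to EGFR inhibitors. They are RefSeq's (GRCh38.p14), 5′ to 3′ on the strand of the gene, from 250 bases before the RefSeq start, and were ended where RefSeq or GENCODE places the first transcribed base. Capitals mark each match to the E-box CAGGTG, the form bound by ZEB and SNAI repressors, or to the GC box GGGCGG, the form bound by SP1, on either strand. The windows are chr3:49903874-49904123 (minus strand) for MST1R, chr2:111898357-111898478 (plus) for MERTK, chr7:116671946-116672195 (plus) for MET and chr19:41218973-41219202 (plus) for AXL.
MST1R: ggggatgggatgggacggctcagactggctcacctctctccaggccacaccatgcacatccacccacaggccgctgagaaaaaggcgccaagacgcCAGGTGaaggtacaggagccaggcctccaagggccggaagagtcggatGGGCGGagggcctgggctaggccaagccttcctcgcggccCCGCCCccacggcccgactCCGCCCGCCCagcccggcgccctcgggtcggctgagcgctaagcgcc
MERTK: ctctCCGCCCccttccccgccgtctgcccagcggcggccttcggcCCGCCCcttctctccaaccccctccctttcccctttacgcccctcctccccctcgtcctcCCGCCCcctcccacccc
MET: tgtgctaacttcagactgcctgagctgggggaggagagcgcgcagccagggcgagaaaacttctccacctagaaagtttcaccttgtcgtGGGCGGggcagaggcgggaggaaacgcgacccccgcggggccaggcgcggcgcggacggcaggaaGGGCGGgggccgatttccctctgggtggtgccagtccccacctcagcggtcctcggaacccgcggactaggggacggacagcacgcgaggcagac
AXL: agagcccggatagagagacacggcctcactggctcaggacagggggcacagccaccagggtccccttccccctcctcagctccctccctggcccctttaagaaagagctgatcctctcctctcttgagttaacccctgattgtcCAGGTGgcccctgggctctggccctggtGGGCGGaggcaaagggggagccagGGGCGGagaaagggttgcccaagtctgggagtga

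In these printed stretches MST1R and AXL hold 1 E-box match each, and MERTK and MET hold none. MST1R holds 4 GC box matches, of which 2 overlap, MERTK holds 3, and MET and AXL hold 2 each. Among 35116 RefSeq windows of 250 bases, 17.5% hold the E-box and 42.6% the GC box, so neither is rare. The E-box is held by MST1R, which fell, and by AXL, whose mean was higher in HCC827/GR. A match is a description of the letters in the window.

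MET had the highest level of the 9 genes in each of the 5 libraries. It stood at 78.9, 74.3 and 67.2 FPKM in HCC827/GR replicates 1, 2 and 3 and at 100.8 and 123.6 FPKM in HCC827 replicates 2 and 3. Each HCC827/GR library lay below both HCC827 libraries. The means of 73.5 ± 5.92 FPKM (SD, n = 3) and 112.2 ± 16.1 FPKM (SD, n = 2) give a ratio of 0.655. The log2 fold change of -0.60 (standard error 0.14, 95% interval -0.96 to -0.24) did not pass the adjustment (adjusted p = 0.0621 from limma). With quantile normalization (adjusted p = 0.0370) or with protein-coding genes alone rescaled to equal totals (0.0414) it did, and over all alternatives the adjusted p lay between 0.0370 and 0.348. The whole interval of the difference lies under 0, but it is not adjusted for the number of entries tested. An unadjusted p under 0.05 from limma was reached by 4410 of the 16189 entries.

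MET lies on the plus strand of chromosome 7, from 116672390 to 116798386, and its neighbours there were compared because amplification of the region would carry them along. The study itself reported that it found no MET amplification in HCC827/GR cells. The 3 tested genes before MET had lower means in HCC827/GR, and the 2 after it had higher means. CAV1, which encodes the coat protein of caveolae and was the nearest tested gene before MET, had 118.2, 90.1 and 102.1 FPKM in HCC827/GR and 171.2 and 239.8 FPKM in HCC827. It fell by 0.97 (adjusted p = 0.0489 from limma), the 1 call among the 5 tested neighbours, and its adjusted p lay between 0.0845 and 0.153 with each library left out in turn. Farther before MET, CAV2 had a log2 fold change of -0.56 (adjusted p = 0.0895) and TES one of -0.57 (adjusted p = 0.179). CAPZA2 and ST7, after MET, had 0.24 (adjusted p = 0.216) and 0.12 (adjusted p = 0.508), with 95% intervals that include 0. The other 5 neighbours, TFEC, WNT2, ASZ1, CFTR and CTTNBP2, stayed at or below 0.0776 FPKM in each library and were not tested.

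**Figure D3:**
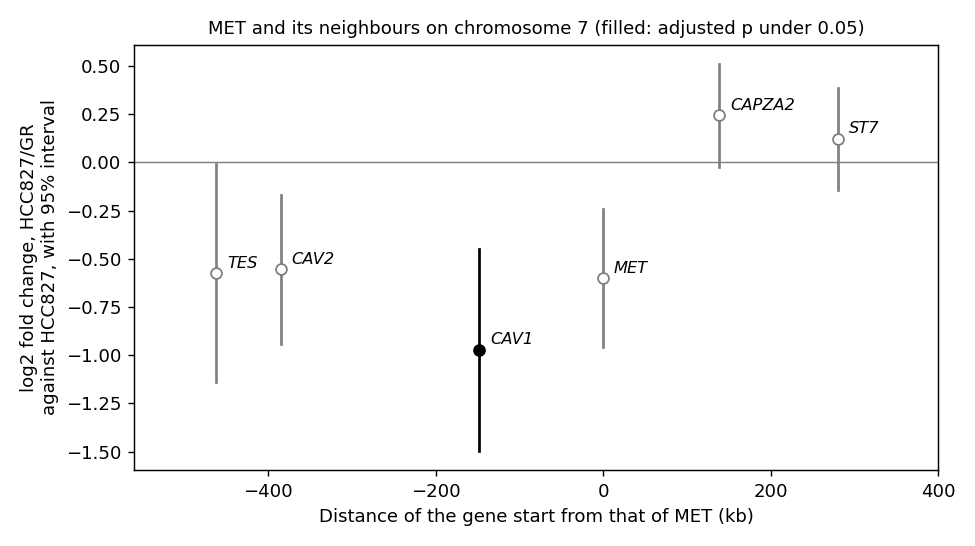
Log2 fold change with its 95% interval for MET and its 5 tested neighbours, against the distance in kb of each gene's start from that of MET. The genes before MET lie below 0, from -0.97 for CAV1 to -0.56 for CAV2, as does MET itself, and CAPZA2 and ST7 after it lie above 0 with intervals that include it.

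AXL, the TAM receptor most often tied to drug tolerance in lung cancer, stood at 38.1, 28.8 and 39.6 FPKM in HCC827/GR replicates 1, 2 and 3 and 15.9 and 21.9 FPKM in HCC827 replicates 2 and 3. The groups did not overlap, but the nearest libraries, HCC827/GR replicate 2 and HCC827 replicate 3, were close. The means were 35.5 ± 5.86 FPKM (SD, n = 3) and 18.9 ± 4.28 FPKM (SD, n = 2), a ratio of 1.88. The log2 fold change of 0.88 (standard error 0.21, 95% interval 0.33 to 1.42) did not pass the adjustment (adjusted p = 0.0685 from limma). It passed when the libraries were rescaled to equal totals (adjusted p = 0.0484) or with protein-coding genes alone (0.0486), and over all alternatives the adjusted p lay between 0.0484 and 0.403. AXL lies on the plus strand of chromosome 19, from 41219203 to 41261766, and the antisense gene AC011510.1 that overlaps it had 1.86, 0.709 and 0.753 FPKM in HCC827/GR and 0.196 and 0.593 FPKM in HCC827, at most a small fraction of the level of AXL.

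TYRO3, the third TAM receptor, was the lowest of them, with 1.30, 1.77 and 1.78 FPKM in HCC827/GR and 0.991 and 1.27 FPKM in HCC827. The groups were parted by a narrow gap between HCC827/GR replicate 1 and HCC827 replicate 3. The log2 fold change was 0.29 (standard error 0.14, 95% interval -0.080 to 0.67, adjusted p = 0.274 from limma). TYRO3 lies on chromosome 15 from 41557675 to 41583586, and its pseudogene TYRO3P was listed at 0 except for 0.522 FPKM in HCC827 replicate 3.

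Ratios between receptors of the same library do not depend on how the libraries were scaled, and they were chosen after the values had been seen. AXL stood at 0.483, 0.387 and 0.589 of the level of MET in HCC827/GR replicates 1, 2 and 3 and at 0.158 and 0.178 in HCC827 replicates 2 and 3. The difference in this ratio was 1.52 on the log2 scale, and the groups did not overlap (p = 0.1 by a two-sided exact permutation test, which cannot give less with these 10 arrangements). Over the 15 ratios, shares and sums compared in this way its Benjamini-Hochberg adjusted exact permutation p was 0.15. AXL made up 86.0% ± 2.69 (SD, n = 3) of the summed FPKM of the 3 TAM receptors in HCC827/GR and 68.4% ± 4.0 (SD, n = 2) in HCC827. The share of MERTK was 9.99% ± 1.72 in HCC827/GR and 27.5% ± 4.04 in HCC827. That of TYRO3 was 4.01% ± 1.05 and 4.12% ± 0.0361, with overlapping libraries, and the exact permutation p was 0.1 for AXL and MERTK and 0.7 for TYRO3. Summed over all 5 receptors, the level was 123.7, 110.3 and 114.2 FPKM in HCC827/GR and 131.7 and 159.2 FPKM in HCC827, also without overlap (exact permutation p = 0.1, adjusted p = 0.15). MET held 58.8% to 67.4% of this sum in HCC827/GR and 76.5% to 77.6% in HCC827.

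**Figure D4:**
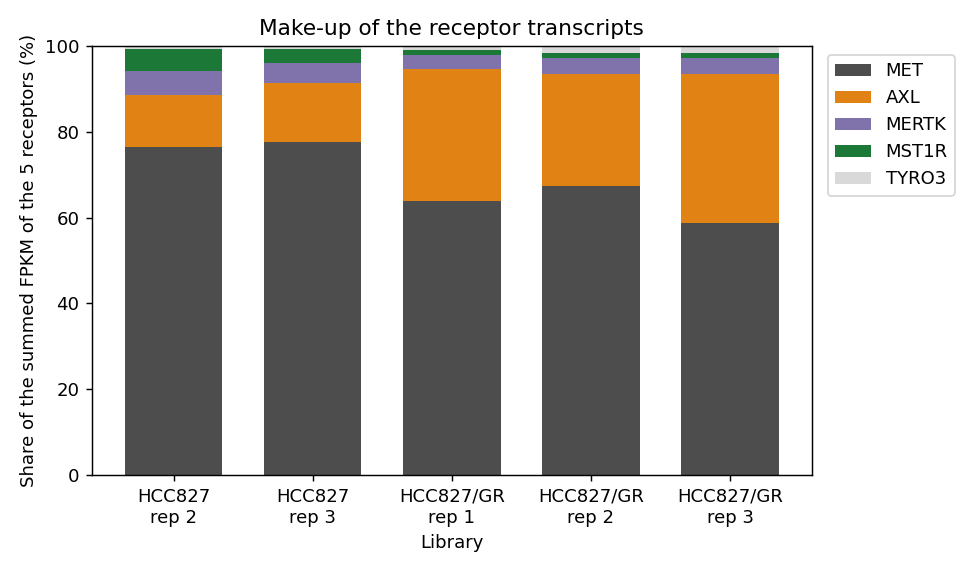
Share, in percent, of the summed FPKM of the 5 receptors held by each, as 1 stacked bar per library. The MET part is 58.8% to 67.4% in the HCC827/GR libraries and 76.5% to 77.6% in the HCC827 libraries, and the AXL part is 26.1% to 34.7% and 12.1% to 13.8%.

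Of the 4 ligands, 3 were tested, and none of the 3 passed the adjustment in either direction. PROS1, an abundant plasma anticoagulant that also activates TYRO3 and MERTK, was the highest ligand, with 27.7, 39.4 and 23.6 FPKM in HCC827/GR and 30.0 and 27.1 FPKM in HCC827. Its HCC827/GR libraries spread on both sides of the HCC827 libraries, and the log2 fold change was 0.05 (95% interval -0.56 to 0.66, adjusted p = 0.919 from limma). The sign turned without HCC827/GR replicate 2 (-0.15, adjusted p = 0.572) or without HCC827 replicate 3 (-0.02, adjusted p = 0.975). GAS6, the ligand with the highest affinity for AXL, had 3.07, 2.76 and 3.39 FPKM in HCC827/GR and 5.43 and 3.08 FPKM in HCC827. HCC827 replicate 2 alone stood high, the log2 fold change was -0.33 (95% interval -0.91 to 0.24, adjusted p = 0.402), and without that library it was -0.0039. PROS1 lies on chromosome 3 from 93873033 to 93980003 and GAS6 on chromosome 13 from 113820549 to 113864067, both on the minus strand, and the antisense gene GAS6-AS1 stayed at or below 0.240 FPKM.

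HGF, on the minus strand of chromosome 7 from 81699008 to 81770438, had low values in 4 separate entries, which differ in what they hold. The entry with the highest mean holds 2 assembled transcripts and no annotated one. It had 1.03, 0.930 and 0.726 FPKM in HCC827/GR and 1.63 and 1.59 FPKM in HCC827, without overlap, and a log2 fold change of -0.47 (95% interval -0.79 to -0.15, adjusted p = 0.0857 from limma). The entry that holds 5 annotated HGF transcripts, with 1 assembled one, had 0.712, 0.729 and 0.793 FPKM in HCC827/GR and 0.544 and 1.05 FPKM in HCC827, with a log2 fold change of -0.03 (95% interval -0.46 to 0.41, adjusted p = 0.935). The lower value in HCC827/GR thus belonged to an assembled locus that carries the name, and the entry with the annotated transcripts did not show it. The remaining entries hold 1 assembled transcript each and were listed at 0 in at least 2 libraries.

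MST1, the ligand of RON, on chromosome 3 from 49683947 to 49689501, had 0.332, 0.407 and 0.341 FPKM in HCC827/GR and 0.353 and 0.402 FPKM in HCC827. The libraries overlapped, and the mean of 0.367 FPKM was below the level for testing. The MST1 entry joins transcripts of 2 GENCODE genes, and the near-identical copies MST1L and MST1P2 were listed at up to 0.207 and 0.337 FPKM, so reads may have been divided between them. APEH, which overlaps MST1 on the other strand, stood at 13.1 to 15.7 FPKM.

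The other genes of these pathways were taken from 8 lists holding 86 genes, of which 62 were tested. An adjusted p under 0.05 was reached by 7 that were higher and 5 that were lower in HCC827/GR. That is set beside 11.0% of all entries tested, 5.26% higher and 5.71% lower, as are the counts of each list below. The median log2 fold change over the 62 was 0.04.

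Among the proteases that activate pro-HGF and pro-MSP and the inhibitors of such proteases, 6 of 12 genes were tested and 2 fell. ST14 encodes matriptase, a membrane protease of epithelia that cleaves pro-HGF and pro-MSP. It had 1.42, 2.05 and 1.19 FPKM in HCC827/GR and 37.9 and 31.6 FPKM in HCC827. It fell by 3.82 on the log2 scale (standard error 0.18, adjusted p = 0.00234 from limma). SPINT1 encodes HAI-1, the membrane-bound inhibitor of matriptase and of the HGF activator, and it fell with it, from 13.9 and 9.22 FPKM to 1.61, 2.83 and 1.22 FPKM (log2 fold change -2.13, standard error 0.30, adjusted p = 0.0200). PLAU, the gene for urokinase, was singled out after its values were seen. It had 31.7, 39.0 and 55.8 FPKM in HCC827/GR and 75.4 and 93.6 FPKM in HCC827, and its log2 fold change of -1.02 had an adjusted p of 0.0857. HGFAC, the gene for the circulating HGF activator, stayed at or below 0.0272 FPKM in each library. With each library left out in turn, ST14 kept an adjusted p under 0.05 in 5 of 5 cases. SPINT1 kept it without HCC827/GR replicate 2 and lost it in the other 4 cases, up to 0.110 without HCC827 replicate 2.

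**Figure D5:**
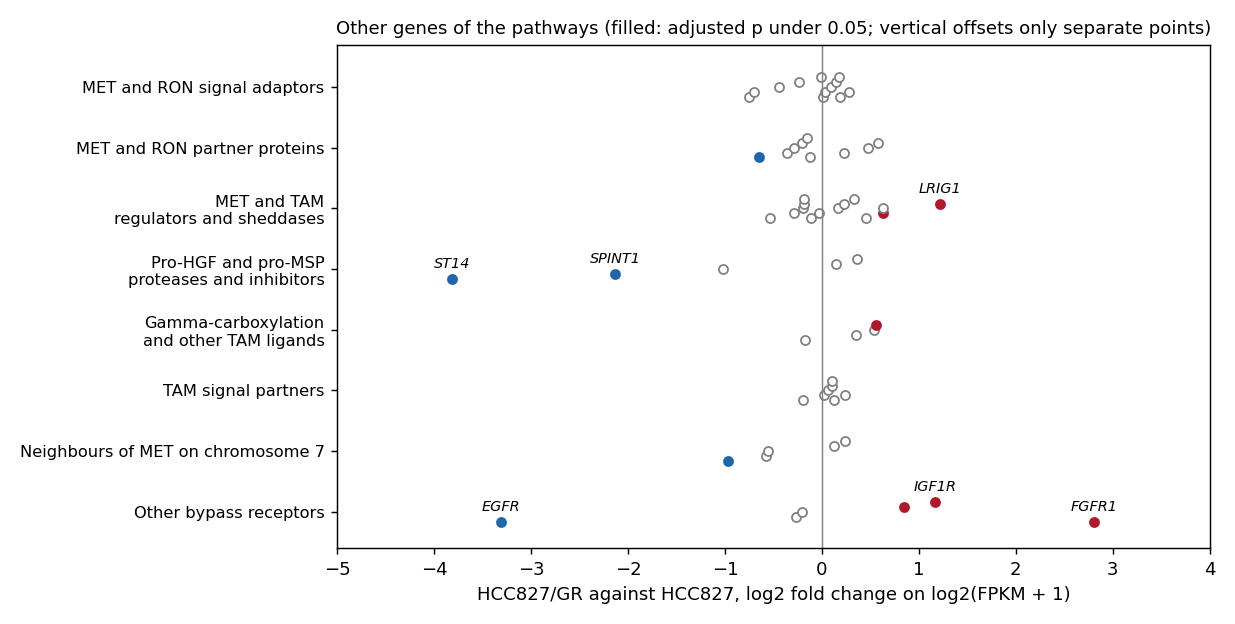
Log2 fold change of tested pathway genes, in 8 rows by list (a gene on more than 1 list is drawn in each), with filled points for an adjusted p under 0.05. ST14 at -3.82 and SPINT1 at -2.13 stand out among the protease genes, while the adaptor and TAM partner lists hold no filled point.

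None of 12 tested adaptors of MET and RON, which act downstream of the receptors, reached an adjusted p under 0.05. The lowest p belonged to GAB1, the main docking protein of MET, with a log2 fold change of -0.70 (adjusted p = 0.138). Next was PTPN11, the phosphatase SHP2, with -0.75 (adjusted p = 0.154). None of 7 tested TAM partners reached it, with 0.24 on the log2 scale for TNS2 (adjusted p = 0.321) and 0.12 for the kinase TNK2 (adjusted p = 0.436). Among 9 tested partner proteins of MET and RON, ITGA6, the integrin chain that pairs with ITGB4, fell by 0.64 (adjusted p = 0.0482), and the tetraspanin CD151 had a log2 fold change of 0.58 (adjusted p = 0.0706).

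Among 14 tested negative regulators and sheddases, 2 rose, beside 11.0% of all entries called in either direction and 5.26% called higher. LRIG1, a membrane protein that promotes the degradation of MET and of EGFR family receptors, had 1.74, 1.59 and 2.51 FPKM in HCC827/GR and 0.217 and 0.296 FPKM in HCC827, a rise by 1.22 (standard error 0.17, adjusted p = 0.0208 from limma). PTPRF, the receptor phosphatase LAR, rose by 0.63 (adjusted p = 0.0372). Of 4 tested genes for carboxylation and other TAM ligands, VKORC1L1, a vitamin K epoxide reductase, rose by 0.55 (adjusted p = 0.0412), and its paralog VKORC1 had 0.54 (adjusted p = 0.101). With each library left out in turn, PTPRF and VKORC1L1 had an adjusted p above 0.05 in 5 of 5 cases, from 0.0732 to 0.134 and from 0.0894 to 0.147. LRIG1 and ITGA6 kept a call without HCC827/GR replicate 3 and lost it in the other 4 cases, with adjusted p up to 0.109 for LRIG1 and 0.172 for ITGA6.

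Other receptor tyrosine kinases that can carry the signal formed the last list, with 6 tested, 3 higher and 1 lower. EGFR, the target of gefitinib, fell from 70.8 and 56.4 FPKM in HCC827 to 7.82, 5.78 and 3.52 FPKM in HCC827/GR (log2 fold change -3.31, standard error 0.31, adjusted p = 0.00926 from limma). MET exceeded EGFR in each library of both lines, and AXL exceeded it in the 3 HCC827/GR libraries and in neither HCC827 library. The fibroblast growth factor receptor FGFR1 and the insulin-like growth factor receptor IGF1R moved the other way. FGFR1 rose from 0.935 and 1.59 FPKM to 14.2, 12.04 and 18.6 FPKM (log2 fold change 2.81, adjusted p = 0.00661 from limma). IGF1R rose by 1.17 (adjusted p = 0.0301), as did INSR, singled out after its values were seen, by 0.85 (adjusted p = 0.0181). FGFR1 kept an adjusted p under 0.05 in 5 of 5 cases with a library left out. EGFR lost it without HCC827 replicate 2 (0.0697) or 3 (0.0563), and IGF1R and INSR kept it without HCC827/GR replicate 3 and lost it in the other 4 cases, up to 0.148 and 0.0887.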

How the data were processed

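Per the file headers and the methods, the authors deposited 1 FPKM value per gene or assembled locus and library, after trimming with Cutadapt, mapping with Bowtie2 and TopHat2, assembly with StringTie and estimation with StringTie and Ballgown. Versions are not given in the sources used here. The submitters' processing notes name hg18, whereas 135164 of 135299 Ensembl transcripts in the table matched GENCODE release 29 (GRCh38). Positions come from that release and promoters from RefSeq, and the table itself holds no coordinates. The labels describe a small-RNA library and the methods an rRNA-depleted mRNA library. One FPKM column (1) of no deposited sample was left out.

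Entries that reached 0.5 FPKM on average were compared on log2(FPKM + 1) with limma 3.58.1 in R 4.3.3 (trend, two-sided, Benjamini-Hochberg over 16189 entries). Python 3.11.15, numpy 2.4.6, pandas 2.3.3 and matplotlib 3.10.9 served for the rest. The fit was tested on simulated data. Members and lists were chosen with earlier results of these data known. Named from each list were genes with an adjusted p under 0.05 and a change of 2-fold or more either way, up to 4 by size, or else the 2 with the lowest p, besides all tested neighbours of MET. The 3 nearest profiles were named for members that met both criteria. PLCG1, SPINT2, PIK3R2, ERBB3, KRT7 and CD3E were not analysed here, and 1 tested gene of the lists is counted but neither named nor drawn. The alternatives tried were 4 scalings, a pseudocount of 0.1, a filter at 1 FPKM or none, limma without the trend, Ballgown's model, a replicate block, summed entries and each library left out. The ratio of mean FPKM and the annotated HGF entry were added after the data were seen.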

Additional observations from a re-analysis of the deposited data

How the results depend on the processing

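The 5 libraries limit what can be called, since depth is unknown and each library carries much of the evidence. Members with an adjusted p under 0.05 numbered 2, and 4 with protein-coding genes alone rescaled to equal totals, 0 with Ballgown's model and its library-size covariate, 0 with the replicate block, and 0 to 2 with each library left out. Pathway genes numbered 12, and 7 with no filter, 0 with Ballgown's model, 0 with the block and 3 to 8 with a library left out. Entries numbered 1775, and 1183 with equal totals, 13 with Ballgown's model, 0 with the block (limma, 3545 at an unadjusted p under 0.05) and 489 to 962 with a library left out. Entries past the fold and p thresholds numbered 1123 of 16189 tested (480 higher, 643 lower), and 1884 (860 and 1024) with a pseudocount of 0.1. With protein-coding genes alone they numbered 709 (368 lower), but only 10805 entries were tested there. Ballgown's model and the block leave 2 and 1 residual degrees of freedom, and leaving out an HCC827 library leaves 1, assumed to vary like the others.

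MET passed the adjustment with quantile normalization (log2 fold change -0.66) and protein-coding genes (-0.61), and AXL with equal totals (0.83) and protein-coding genes (0.87). MST1R did not pass with Ballgown's model (-1.47), the block (-1.50) or without HCC827/GR replicate 1 (-1.69 to -1.30 over the libraries left out). MERTK did not with Ballgown's model (-0.77), the block (-0.73) or 3 of the libraries left out (-0.77 to -0.73). PROS1 turned sign without HCC827/GR replicate 2 (-0.15) and without HCC827 replicate 3 (-0.02), in a range from -0.15 to 0.21. For TYRO3, HGF and GAS6 the direction held in 17 of 17 alternatives each, and the adjusted p stayed above 0.05 in the 16 that give one. The same-numbered libraries did not deviate together (r = 0.0328 and 0.0147 across entries), so the replicate numbers were not taken as pairs. The 2 HCC827 libraries deviate from their own mean by equal and opposite amounts, so these 2 values are not independent checks.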
